A study of Homo sapiens with 121 samples.

Results

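MIR4461, MIR6723 and 6 genes of the MTRNR2L family were followed across 121 single human embryonic stem cells (hESCs). They are listed in the nuclear genome, and the copies whose sequence was read here match stretches of the mitochondrial genome. The 8 genes were chosen by name, with their high levels already known, out of 25610 gene rows in the table, and all 8 were present. The cells are of WA26, an established hESC line, grown in E8 medium on Matrigel without feeder cells, with no genetic change named for them. At passage they were lifted with EDTA and given Rocki, an inhibitor of ROCK kinase, a treatment that all 3 groups share. Each was analysed by scT&R-seq, in which the mRNA of a lysed cell is caught by an oligo-dT primer and sequenced by a Smart-seq2 protocol while its DNA goes into a qPCR that sets telomeric repeats (T) in relation to Alu elements (R). By the resulting T/R ratio the labels place 81 cells in a Long, 25 in a Medium and 15 in a Short telomere group.

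Human mitochondrial DNA encodes 2 ribosomal RNAs, transfer RNAs and a small set of respiratory chain proteins, and most of its mRNAs carry short poly(A) tails. Over evolution, fragments of it were copied into the chromosomes. MT-RNR2, the gene of the large mitochondrial ribosomal RNA, contains a short reading frame for humanin, a peptide known for protecting cells from death. The MTRNR2L (MT-RNR2-like) genes are nuclear copies of this stretch that keep a humanin-like reading frame. MIR4461 and MIR6723 are annotated as microRNA genes.

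The sequences are shown first, for those of the 8 genes that could be read. The GRCh37 annotation used here has an entry for MIR4461, MTRNR2L1, MTRNR2L6 and MTRNR2L10, and for MTRNR2L3, a family member outside the 8 that serves as a contrast of low level. MIR6723, MTRNR2L2, MTRNR2L8 and MTRNR2L9 had no entry under these names, so their sequences were not compared. MIR4461 is 74 bases long, at chr5:134263729-134263802 on the plus strand of GRCh37, in an intron of PCBD2, with 0 exons of that gene overlapping it. It lies opposite the pseudogene MTND4LP30 in a block of pseudogenes of mitochondrial genes, among them MTND4P12, MTND5P11, MTND6P4 and MTCYBP18. Compared with bases 10684 to 10757 of the mitochondrial genome, read on the minus strand, it differs at 4 positions, an identity of 94.6%. The stretch is in MT-ND4L, on the opposite strand to that gene. Without strand, reads of MIR4461 cannot be told apart from those of MTND4LP30, and the study's methods state no use of strand. Counted from 1 at the 5′ end, with the mitochondrial base first, the differences are T8C, T37C, C70T and C73T, marked by capitals in the first of the following lines.
MIR4461: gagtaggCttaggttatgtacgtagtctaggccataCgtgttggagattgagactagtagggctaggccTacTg
Mitochondrial match of MIR4461: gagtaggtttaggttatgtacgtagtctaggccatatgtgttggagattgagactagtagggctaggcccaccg

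For the MTRNR2L genes, the humanin-like reading frame with its stop codon, 75 bases in each, was set beside bases 2633 to 2707 of the mitochondrial genome, inside MT-RNR2. Capitals again mark the bases that differ from the mitochondrial line. MTRNR2L1, at chr17:22023388-22023462 on the plus strand, differs at 2 positions. MTRNR2L6, at chr7:142375063-142375137 on the plus strand, and MTRNR2L3, at chr20:55934021-55934095 on the minus strand, differ at 9 positions each. MTRNR2L10, at chrX:55208353-55208427 on the minus strand, differs at 11.
Mitochondrial humanin frame: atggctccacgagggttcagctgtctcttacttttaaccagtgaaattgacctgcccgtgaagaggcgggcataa
MTRNR2L1: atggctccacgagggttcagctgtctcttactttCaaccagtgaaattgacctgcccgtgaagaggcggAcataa
MTRNR2L6: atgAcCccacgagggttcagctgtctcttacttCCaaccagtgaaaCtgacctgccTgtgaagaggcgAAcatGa
MTRNR2L10: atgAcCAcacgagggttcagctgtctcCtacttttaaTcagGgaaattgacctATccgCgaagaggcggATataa
MTRNR2L3: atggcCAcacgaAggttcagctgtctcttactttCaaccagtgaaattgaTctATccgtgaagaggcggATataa

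Over their whole length the annotated genes matched MT-RNR2 with an identity of 88.7% for MTRNR2L1, 84.5% for MTRNR2L6, 82.5% for MTRNR2L10 and 80.8% for MTRNR2L3. Since the authors sequenced 50-bp reads, every run of 50 bases in these genes was looked up in the assembly. All 25 runs of MIR4461 occur once, as do 97.7% of those of MTRNR2L1, 94.9% of MTRNR2L10, 97.4% of MTRNR2L3 and 85.3% of MTRNR2L6. With up to 2 mismatches allowed, 92% of the runs of MIR4461 match the mitochondrial genome. The share was 16.7% for MTRNR2L1, 9.70% for MTRNR2L10, 7.08% for MTRNR2L6 and 3.52% for MTRNR2L3. The mean levels of these MTRNR2L genes, given next, have the order of this share, over 4 genes of 1 family. They do not have the order of the whole-length identity, in which MTRNR2L6 stands above MTRNR2L10. MTRNR2L3 was brought in for its low level, so its last place was known beforehand. A link of level to likeness was not tested. How many reads of the mitochondrial genome were placed on the 8 rows was not tested, because the table holds no reads, and the rows of the mitochondrial genome were not analysed here.

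The 8 rows were among those of highest value in the cells. The unit is named TPM, which by definition divides reads by gene length and scales them to a fixed sum per cell. The study's methods describe counts normalized by library size and name no division by length, so how the values were made is not settled. If length was divided out, a short row gains more TPM from each read. Ranks between rows of unlike length, such as MIR4461 with 74 bases, are thus no measure of the number of molecules. With a fixed sum, a rise of one row lowers the share left for the others. TPM keeps no number of reads, so no counting error could be given. MIR4461 had a mean of 17982 ± 13282 TPM (SD across cells, n = 121), the rank 2 of all rows, and MIR6723 a mean of 9689 ± 11693 TPM, the rank 3. Of the MTRNR2L genes, MTRNR2L2 had 4508 ± 2796 TPM, MTRNR2L8 2241 ± 1541, MTRNR2L9 1115 ± 930.2, MTRNR2L1 728 ± 494 TPM, MTRNR2L10 282 ± 199 and MTRNR2L6 175 ± 159, at ranks from 21 to 860. Thus every one of the 8 stood in the upper end of the table, with a wide range from the first to the last.

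The other MTRNR2L rows, which the choice of the 8 left out, were far lower. MTRNR2L3 had a mean of 4.14 TPM and was listed at 0 in 45 cells, and MTRNR2L4 had 3.87 TPM with 43 cells at 0. MTRNR2L5 was at 0 in 63 cells and MTRNR2L7 in 115. Among 1883 other rows of microRNA genes, the highest were MIR4426 with a mean of 4609 TPM, MIR3654 with 1376 and MIR5096 with 522. Their rank correlations across cells with MIR4461, MIR6723 and MTRNR2L2 ran no higher than 0.323, which was that of MIR4426 with MIR4461.

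The order of the levels was mostly the same in every cell. MTRNR2L2 was higher than MTRNR2L8, and MTRNR2L8 higher than MTRNR2L9, in 121 of 121 cells. On the log2(TPM + 1) scale the first step was 0.99 ± 0.33 (SD, n = 121) and the second 1.11 ± 0.48. MTRNR2L1 exceeded MTRNR2L10 in 120 cells, by 1.40 ± 0.35, and MTRNR2L10 exceeded MTRNR2L6 in 115 cells, by 0.81 ± 0.79. The neighbours MTRNR2L9 and MTRNR2L1 were less separated, with the first higher in 108 cells and a step of 0.49 ± 0.60, which is smaller than its SD. MIR6723 was above MTRNR2L2 in 106 cells, with a step of 1.00 ± 0.97, and MIR4461 above MIR6723 in 101 cells, with a step of 0.75 ± 1.57, again smaller than its SD.

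Each MTRNR2L gene held a characteristic part of the family's sum over the 6 genes. MTRNR2L2 took 49.6% ± 7.78 of it (SD, n = 121), MTRNR2L8 24.7% ± 1.90, MTRNR2L9 12.0% ± 3.68, MTRNR2L1 8.37% ± 2.44, MTRNR2L10 3.32% ± 1.45 and MTRNR2L6 2.04% ± 1.23. The part of MTRNR2L8 was the steadiest relative to its size, and ran from 20.3% in the lowest cell to 31.0% in the highest. A gene was called detected above TPM 1, and the cells were divided at a border of 8000 detected genes, chosen after the values were seen, into 68 gene-rich and 53 poorer cells. MTRNR2L2 held 53.7% ± 4.68 of the sum in gene-rich and 44.2% ± 7.72 in poorer cells. The latter hold 12 of the 15 Short cells, 30 of the 81 Long and 11 of the 25 Medium cells, so values on either side of the border are given beside the pooled ones.

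**Figure D1:**
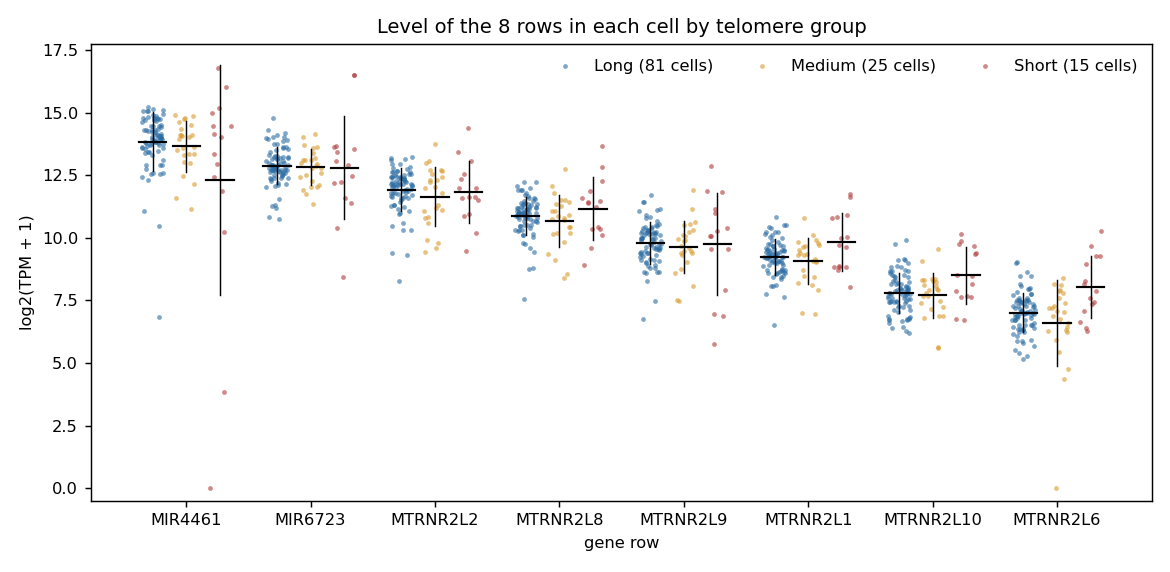
Level of the 8 rows on the log2(TPM + 1) scale (y axis) in each of the 81 Long, 25 Medium and 15 Short cells, with 1 point per cell. Horizontal bars are group means and vertical lines the SD across cells. The groups overlap in every row, and MIR4461 has a wide spread in Short cells, where 1 cell lies at 0.

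The rows were present in nearly every cell. Of the 8, 6 were above TPM 0 in all 121 cells, while 602 genes of the whole series were, which is 2.35%. MIR4461 was listed at 0 in 1 Short cell, Short_6, where MIR6723 was at 341 TPM, its lowest value of all cells, while MTRNR2L2 was at 1890 and MTRNR2L8 at 1101. A second Short cell, Short_13, had 13.2 TPM of MIR4461 and 4717 of MIR6723. MTRNR2L6 was listed at 0 in 1 Medium cell, Medium_13, in which the other MTRNR2L genes were 1.17 to 1.45 times their medians.

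Most of the 8 rows varied less between cells than the median gene with a mean of 10 TPM or more, a set not matched to their level. The SD of log2(TPM + 1) across cells had a median of 0.99 over the 8 rows and 2.02 over the 6213 genes whose TPM averaged 10 or more, and every one of the 8 was below that median. In the 68 gene-rich cells the medians were 0.67 and 1.08, and again 8 of 8 were below. In the 53 poorer cells they were 1.23 and 2.40, and 7 of 8 were below, the exception being MIR4461 with an SD of 2.73. Abundant genes have fewer zeros, and the part of abundance in this difference was not tested.

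Summed over the 8 rows, a cell held between 2638 and 232588 TPM, with a median of 31617, which is 3.18% of the cell's TPM. The middle of the Long cells lay at 32333 TPM, of the Medium cells at 29831 and of the Short cells at 31204. Short_12, with 23.5% of its TPM in the 8 rows, and Short_8, with 20.7%, stood apart from all others, and the next cell, Medium_24, had 7.55%. The lowest was Long_69 with 0.265%.

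In the cell Short_12, MIR4461 stood at 111652 TPM, which is 6.87 times its median over cells, and MIR6723 at 93188 TPM, 12.6 times its median. MTRNR2L6 was raised 9.17 times there, and MTRNR2L2 2.57 times. Short_8 had 65585 TPM of MIR4461, 92674 of MIR6723 and 21382 of MTRNR2L2, the last 5.04 times its median. In Long_69, by contrast, MIR4461 was at 0.00688 times its median, MTRNR2L2 at 0.0722 times, MTRNR2L8 at 0.0941 times and MTRNR2L10 at 0.315 times. These 3 cells had 6407, 5620 and 4217 detected genes, so each belonged to the poorer set, and the Long-Short and Medium-Short differences are given also without Short_8 and Short_12.

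**Figure D2:**
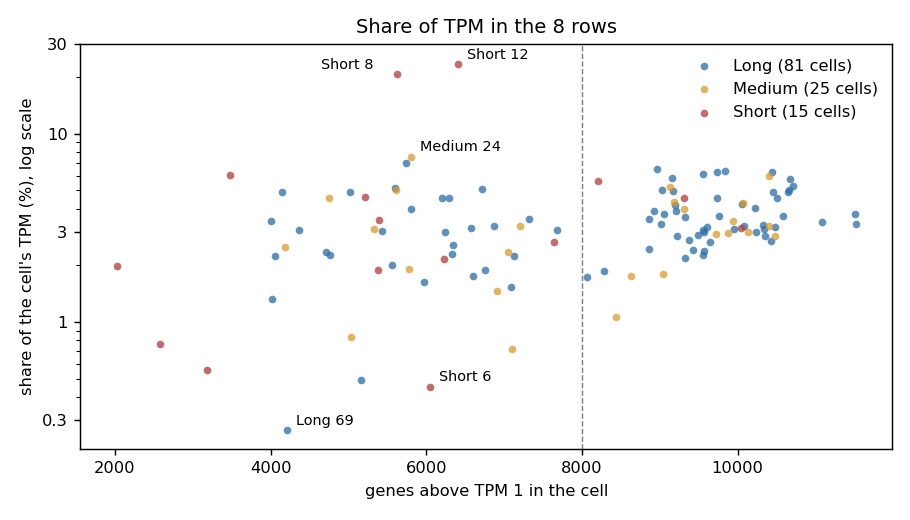
Share of each cell's TPM in the 8 rows, in percent on a log axis, against the number of genes above TPM 1 in the cell, with 1 point per cell colored by telomere group and a dashed line at 8000 genes. Short_12 (23.5%) and Short_8 (20.7%) lie above all other cells, and the spread is wider to the left of the line.

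The rows rose and fell together from cell to cell. Pearson's r of log2(TPM + 1) had a median of 0.625 over the 28 pairs of the 8 rows, while over all pairs of the 6213 genes the median was 0.181 and 2.34% of the pairs were above 0.5. For the 8 rows 21 of 28 pairs were above 0.5. Since all cells share a protocol and TPM sums to a fixed total, these coefficients describe the cells and were not tested. In the 68 gene-rich cells, the median over the 28 pairs was 0.825, against 0.0151 for all pairs of genes, of which 0.156% were above 0.5. In the 53 poorer cells it was 0.651 against 0.0928.

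The 6 MTRNR2L genes were the most tightly linked. Their 15 pairs had a median r of 0.803 over all cells, 0.904 in gene-rich and 0.819 in poorer cells. The highest r was that of MTRNR2L2 with MTRNR2L8, 0.941 over all cells and 0.973 in the gene-rich ones. By Spearman's rho this pair had 0.895 over all cells and was not the highest of the 15, which had a rho of 0.941. In the gene-rich cells, the lowest r of the 15 was that of MTRNR2L2 with MTRNR2L6, at 0.806. The annotated genes MTRNR2L1, MTRNR2L6 and MTRNR2L10 had r from 0.904 to 0.940 in their 3 pairs there. These genes have 0 exact runs of 50 bases in common with each other, while 14.7% of the runs of MTRNR2L6, 4.20% of those of MTRNR2L10 and 1.99% of those of MTRNR2L1 occur elsewhere in the nuclear genome. Runs shared with mismatches were not compared within the family, and the part of shared reads in the correlation was not tested.

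MIR4461 and MIR6723 differed from each other in how closely they followed the family. In the gene-rich cells, r of MIR4461 with the 6 MTRNR2L genes ran from 0.638 to 0.832, highest with MTRNR2L2, with a median of 0.740. For MIR6723 these values were lower, from 0.307 to 0.423 with a median of 0.402, and the pair of MIR4461 and MIR6723 had 0.366. In the poorer cells the medians were 0.496 for MIR4461 and 0.565 for MIR6723, so by r the order of both seen in gene-rich cells was not seen there. By Spearman's rho the medians in the poorer cells were 0.507 for MIR4461 and 0.491 for MIR6723. Over all cells the medians of r were 0.466 and 0.504. Without the cell with MIR4461 at 0 they were 0.556 and 0.523. MIR4461 and MTRNR2L6 formed the weakest pair over all cells, at 0.115, with 0.638 in gene-rich and 0.131 in poorer cells. MIR4461 has no exact run of 50 bases in common with the annotated MTRNR2L genes.

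**Figure D3:**
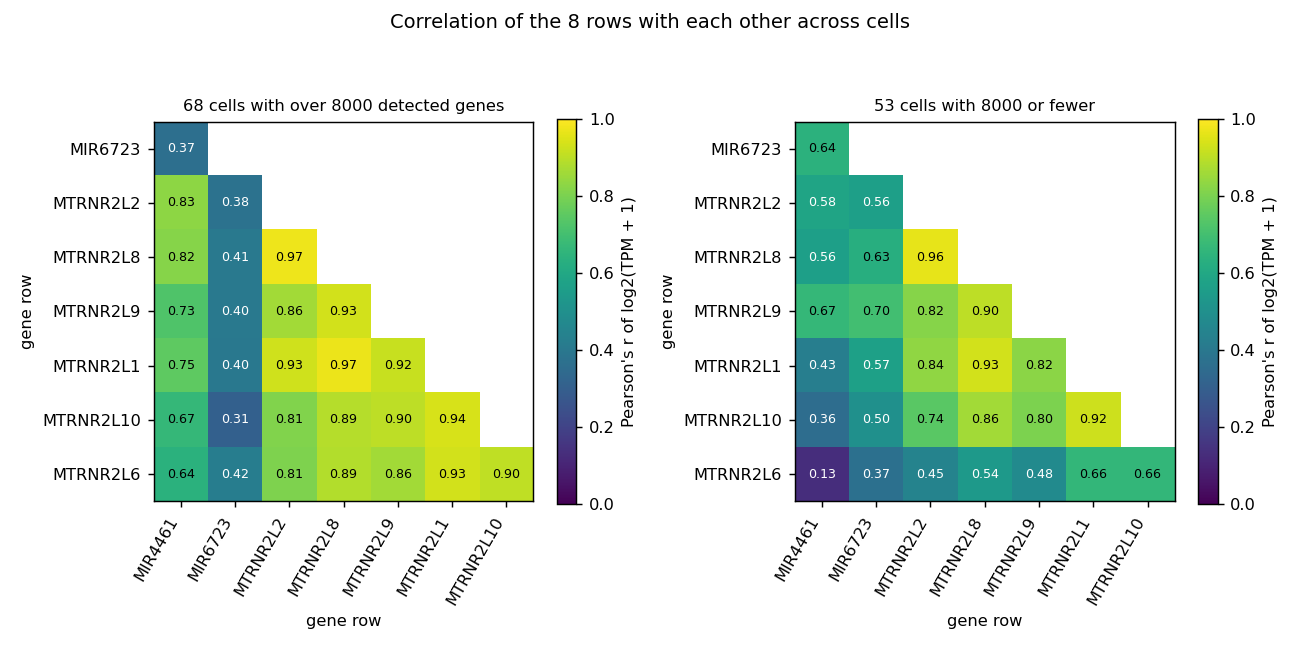
Pearson's r of log2(TPM + 1) between each pair of the 8 rows, as colour and number, in the 68 cells with over 8000 detected genes (left) and the 53 other cells (right). The MTRNR2L block is bright in both except for MTRNR2L6 on the right, MIR4461 joins it most clearly on the left, and MIR6723 has values of 0.31 to 0.42 there.

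**Figure D4:**
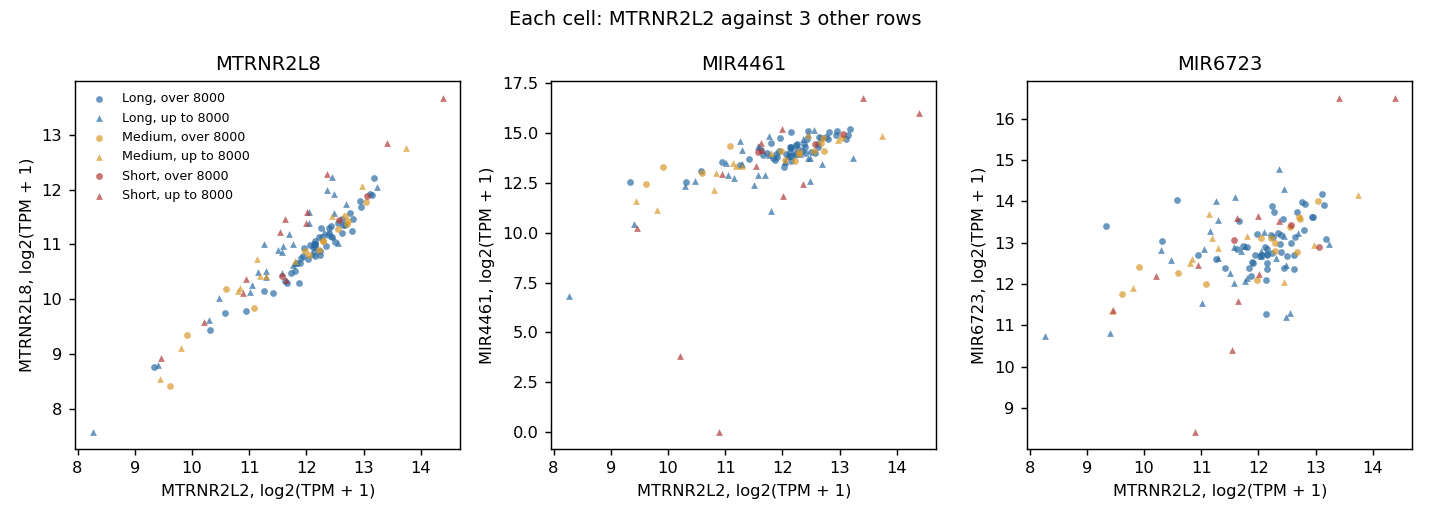
MTRNR2L8, MIR4461 and MIR6723 against MTRNR2L2 in each cell, all as log2(TPM + 1), colored by telomere group, with circles for cells with over 8000 detected genes and triangles for the others. MTRNR2L8 follows MTRNR2L2 closely (r = 0.941), and MIR4461 has 3 cells far below the rest, namely Short_6, Short_13 and Long_69.

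The telomere groups had similar medians with differences in single rows. Over the 28 pairs the Long cells had a median r of 0.728, the Medium cells of 0.771 and the Short cells of 0.730. In the Medium cells, which hold the cell with MTRNR2L6 at 0, MTRNR2L6 had r from 0.298 to 0.439 with the other MTRNR2L genes. Among Short cells MIR6723 had a median r of 0.666 with the family and MIR4461 of 0.543, whereas among Long cells these were 0.404 and 0.576. Among Medium cells both were higher, at 0.743 and 0.769, so they did not follow the order of the groups. The Short values rest on 15 cells, Short_8 and Short_12 among them, and are not given without these. Without Short_8 and Short_12 the median over the 28 pairs was 0.591 over the 119 remaining cells, and with the number of detected genes held fixed, as a partial correlation, it was 0.634 over all cells.

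Likeness was ranked for MIR4461, MIR6723 and MTRNR2L2. By Spearman's rho over the 121 cells, the 6 genes closest to MTRNR2L2 among 6212 were the other 5 MTRNR2L genes and MIR4461, with rho from 0.546 to 0.895. For MIR6723 the first 5 were MTRNR2L9 with 0.563, MTRNR2L8, MIR4461, MTRNR2L2 and MTRNR2L1 with 0.454. MIR4461 was closest to MTRNR2L2, with 0.717, and MTRNR2L8, with 0.613, while MTRNR2L10 stood at rank 334 and MTRNR2L6 at rank 929 of its list. In the gene-rich cells alone MTRNR2L10 and MTRNR2L6 stood at ranks 5 and 6 of that list, with rho of 0.595 and 0.575. In the poorer cells their ranks were 95 and 370.

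Outside the 8, MIR4461 had its highest rho with TSIX, the antisense RNA of the XIST locus, at 0.556, whose reads cannot be told apart from those of its partner without strand. It was followed by RANBP2, a nuclear pore protein, at 0.546, by RPL10, a protein of the large ribosomal subunit, at 0.543, by PRDX1, a peroxide-reducing enzyme, at 0.531 and by the ribosomal protein gene RPL5 at 0.530. These values were lower in the gene-rich cells alone, from 0.220 for RPL10 to 0.363 for RANBP2, with 0.344 for TSIX. MTRNR2L2 had CD24, a surface glycoprotein, at 0.532, TSIX again at 0.512, the ribosomal protein genes RPL4 at 0.511 and RPLP0 at 0.467, and LINC00371 at 0.468. Reads of ribosomal protein genes can be shared with their many pseudogenes. For MIR6723 the nearest other genes were UBE2K, a ubiquitin-conjugating enzyme, at 0.415, LOC643406 at 0.412, PPP1CB, a catalytic subunit of a protein phosphatase, at 0.367, MAD2L1, a spindle checkpoint protein, at 0.363 and the antisense RNA UGDH-AS1 at 0.362, which cannot be told apart from its partner without strand. In the gene-rich cells these were 0.457 for UBE2K, 0.498 for LOC643406, 0.177 for PPP1CB, 0.262 for MAD2L1 and 0.376 for UGDH-AS1. The most negative rho was with TMA7 for MIR4461, at -0.665, and for MTRNR2L2, at -0.604, and with RPL35 for MIR6723, at -0.345.

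Over all cells the rows had no common direction with the number of detected genes. Pearson's r of log2(TPM + 1) with that number had a median of 0.0751 over the 8 rows and of 0.422 over the 6213 genes. The rows went both ways, from 0.389 for MIR4461 (rho 0.375) and 0.290 for MTRNR2L2 (rho 0.301) to -0.177 for MTRNR2L6 (rho -0.255) and -0.287 for MTRNR2L10 (rho -0.233). Leaving out the 2 cells with the most distant numbers brought the median over the rows to 0.0445. In the gene-rich cells all 8 were positive, from 0.124 to 0.342, with a median of 0.209 beside 0.0887 for all genes. In the poorer cells 4 of 8 were positive and the median was 0.0179 beside 0.255.

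Between gene-rich and poorer cells the mean log2(TPM + 1) of the 8 rows differed by a median of 0.08, against 1.45 for all genes, and 5 of 8 were higher in the gene-rich cells. MIR4461 was higher there by 1.22 and MTRNR2L2 by 0.49, while MTRNR2L10 and MTRNR2L6 were lower, by -0.46 and -0.44. The SD across cells was larger in the poorer cells for each row, 4.44 times for MIR4461, 2.26 times for MIR6723 and 1.40 times for MTRNR2L2. Level and number of detected genes both come from the same TPM values, which sum to a fixed total in each cell.

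The question of the study was how expression goes with telomere length in the same cell. The labels name neither cultures nor batches. Each telomere group was therefore treated as 1 sample, and the differences describe these cells, with no p-value. In the Long cells MIR4461 ran from 112 over a median of 16263 to 38070 TPM, in the Medium cells from 2271 over 15972 to 30318, and in the Short cells from 0 over 16716 to 111652. The Short cells held both the highest and the lowest values, and the groups overlapped. MIR6723 ran from 1726 over 7404 to 28078 TPM among Long cells, from 2586 over 7520 to 18146 among Medium cells and from 341 over 7686 to 93188 in Short cells. Its medians in the groups lay close together.

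For MTRNR2L2 the lowest, median and highest values of the Long cells were 306, 4461 and 9571 TPM, those of the Medium cells 697, 4020 and 13615 TPM and those of the Short cells 703, 3208 and 21382 TPM. For MTRNR2L6 they were 34.6, 128 and 517 TPM among Long cells, 0, 130 and 339 TPM among Medium cells and 75.9, 236 and 1225 TPM among Short cells. The group of Short cells was thus lower by its median for the first gene and higher for the second, with overlap of all groups in both.

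In MTRNR2L8 the median of the Long cells was 2041 TPM, of the Medium cells 1792 and of the Short cells 2666, and the highest cell was 4777, 6899 and 13080 TPM in this order. In MTRNR2L9 they were 926, 822 and 1086 TPM, with lowest cells of 106, 176 and 53.2 TPM and highest cells of 3368, 3892 and 7542 TPM. The Short cells again reached farthest up in both genes. MTRNR2L1 had medians of 609, 637 and 843 TPM, within ranges of 90.9 to 1804, 122 to 1771 and 259 to 3434 TPM. MTRNR2L10 had medians of 218, 241 and 352 TPM, within ranges of 72.9 to 967, 47.3 to 741 and 105 to 1127 TPM. For these last genes the Short cells lay higher by their median and overlapped with most of the range of the other groups.

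Long minus Short differences of mean log2(TPM + 1) were 1.52 for MIR4461, 0.091 for MIR6723, 0.084 for MTRNR2L2, 0.050 for MTRNR2L9, -0.29 for MTRNR2L8, -0.61 for MTRNR2L1, -0.71 for MTRNR2L10 and -1.02 for MTRNR2L6. Not one of them was larger than the larger SD of its groups. Past a difference of 1, 1 row, MIR4461, was higher in Long cells, where 66.5% of the 6213 genes were, and 1 row, MTRNR2L6, was higher in Short cells, where 1.71% of the genes were. The median over the 8 rows was -0.12 and over all genes 1.40, so that 7 of the 8 lay below the median gene. Without Short_8 and Short_12 these medians were 0.22 and 1.32, and for 40 cells from the top of the T/R ratios against 40 from the bottom 0.11 and 0.46, so the sign over the rows turned in both.

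Single rows moved with the cells left out as well. Without Short_8 and Short_12 the differences were 2.15 for MIR4461, 0.66 for MIR6723, 0.45 for MTRNR2L9, 0.40 for MTRNR2L2, 0.032 for MTRNR2L8, -0.32 for MTRNR2L1, -0.48 for MTRNR2L10 and -0.76 for MTRNR2L6. Leaving out 1 cell turned the sign of the small ones, MIR6723 to -0.22 without Short_6, MTRNR2L2 to -0.086 without Short_9 and MTRNR2L9 to -0.23 without Short_9. Any of 3, 2 and 4 cells did so, in this order: Short_4, Short_6 and Short_9 for MIR6723, Short_9 and Short_13 for MTRNR2L2, and Short_5, Short_6, Short_9 and Short_13 for MTRNR2L9.

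The difference of MIR4461 rested on 2 Short cells, and leaving out either took it to within 1. It was 0.64 without Short_6 and -0.079 without Short_6 and Short_13, which were left out after the values were seen, and the SD of the Short cells went from 4.58 to 1.76. The difference of medians was -0.040, and of all pairings of a Long with a Short cell, 53.5% had the higher value in the Long one. For MTRNR2L6 this share was 25.4%. Leaving out any 1 of 7 cells took its difference to within 1, the smallest being -0.86 without Short_12. These were Long_7, Long_69, Short_4, Short_7, Short_8, Short_12 and Short_15. It was 31.7% for MTRNR2L10 and 35.9% for MTRNR2L1, and without any single cell their differences stayed between -0.84 and -0.59 and between -0.73 and -0.47.

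**Figure D5:**
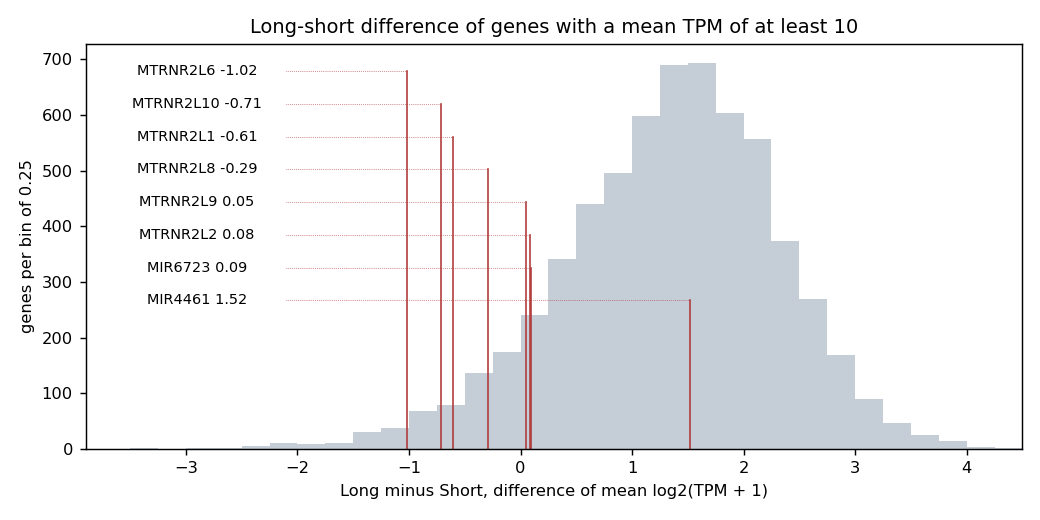
Number of genes by their difference of mean log2(TPM + 1), Long minus Short, in bins of 0.25 over the 6213 genes whose TPM averaged 10 or more, with a red line for each of the 8 rows at its own value. The genes center near 1.40, and 7 of the 8 rows lie to the left of it, from -1.02 for MTRNR2L6 to 0.091 for MIR6723.

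On either side of 8000 detected genes the picture was different for the genes than for the 8 rows. In the 51 Long and 3 Short gene-rich cells the median of all genes was 0.04 and that of the 8 rows -0.32. All 8 were lower in the Long cells there, from -0.14 for MIR6723 to -0.46 for MTRNR2L9, and none passed 1, while 12.7% of the genes were higher in Long and 6.94% higher in Short cells by more than 1. With 3 Short cells these means are imprecise, and 1 cell turned the sign for MIR6723, to 0.0064 without Short_3, and for MTRNR2L2, to 0.053 without Short_10. In the 30 Long and 12 Short poorer cells the median of the 8 was -0.22 beside 1.03 for all genes, and MIR4461, with 1.47, was the only row past 1, where 51% of the genes were higher in Long and 3.9% higher in Short cells. That value was 0.40 without Short_6, its difference of medians was 0.41, and 53.3% of the pairings had the higher value in the Long cell. Without Short_8 and Short_12 the median of the 8 rows in these poorer cells was 0.21, and MIR4461 was at 2.39.

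Medium minus Short, which shares the Short cells with the comparison above, was 1.34 for MIR4461 and -1.43 for MTRNR2L6, with 59.9% of the genes higher in Medium and 2.01% higher in Short cells by more than 1. The other 6 rows lay between -0.80 for MTRNR2L10 and 0.017 for MIR6723, and the sign turned when 1 cell was left out for MIR6723 (13 cells, the lowest value -0.30 without Short_6) and for MTRNR2L9 (Short_7, Short_8 or Short_12, the highest value 0.12 without Short_8). The value of MIR4461 was 0.46 without Short_6 and also within 1 without Short_13, its difference of medians was -0.066, and 50.4% of the pairings had the higher value in the Medium cell. The value of MTRNR2L6 was -1.16 without Medium_13 and -1.17 without Short_8 and Short_12. Leaving out those 2 Short cells gave 1.96 for MIR4461, 0.59 for MIR6723, 0.30 for MTRNR2L9, 0.12 for MTRNR2L2, -0.19 for MTRNR2L8, -0.48 for MTRNR2L1 and -0.57 for MTRNR2L10. In the 14 Medium and 3 Short gene-rich cells every row was lower in Medium cells, from -0.29 for MIR6723 to -0.58 for MIR4461. MTRNR2L6 was at -0.46 there. In the 11 Medium and 12 Short poorer cells MIR4461 was at 1.55 and MTRNR2L6 at -1.86. There 47.4% of the genes were higher in Medium and 5.09% in Short cells by more than 1. These values were 0.48 for MIR4461 without Short_6 and -1.22 for MTRNR2L6 without Medium_13.

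Long minus Medium ran from 0.073 for MIR6723 to 0.41 for MTRNR2L6, the latter being 0.14 without Medium_13 with a difference of medians of -0.013. None passed 1, while 1.75% of the genes were higher in Long and 0.66% in Medium cells. In the gene-rich cells the rows ran from 0.084 for MTRNR2L10 to 0.28 for MTRNR2L2. In the poorer cells they ran from -0.079 for MIR4461 to 0.89 for MTRNR2L6, the latter being 0.26 without Medium_13. Leaving out Medium_25 turned the sign of MTRNR2L1, MTRNR2L6, MTRNR2L9 and MTRNR2L10 in the gene-rich cells. In the poorer cells leaving out 1 cell could turn the sign of every row but MTRNR2L6.

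With the T/R ratio itself the rows had a median r of 0.0585 over 121 cells, from 0.0176 for MIR6723 (rho 0.0383) to 0.145 for MIR4461 (rho 0.0855), and all genes had a median of 0.0646. Without Short_8 and Short_12 the median of the rows was 0.129, and 0.0612 when the 2 cells with the most distant T/R ratios were left out. In the gene-rich cells it was 0.0697, and in the poorer cells 0.0581. Inside the groups the values went apart. In the 81 Long cells the median was 0.221, with 0.383 for MTRNR2L10, 0.340 for MTRNR2L6 and 0.296 for MTRNR2L1, while MIR4461 had -0.0448 and all genes had a median of -0.156. In the 25 Medium cells the median of the rows was 0.0195, and in the 15 Short cells it was -0.127 beside 0.326 for all genes. Partial correlations that hold the number of detected genes fixed were, in the Long cells, positive for every row. They ran from 0.104 for MIR6723 to 0.327 for MTRNR2L10, with 0.316 for MTRNR2L1, 0.297 for MTRNR2L9 and 0.287 for MTRNR2L6. MTRNR2L8 had 0.231 and MTRNR2L2 0.140, and MIR4461 turned to 0.153.

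Genes that act on mitochondrial RNA had levels of their own. Of 28 genes listed for transcription of mitochondrial DNA and processing of its RNA, 24 were measured and 21 averaged 10 TPM or more. Of these 21, 12 were higher in Long cells by more than 1, as 66.5% of all genes were, and 0 were higher in Short cells, with a median difference of 1.27 beside 1.40 for all genes, 0.08 in gene-rich and 0.73 in poorer cells. FASTKD1, which belongs to a family of mitochondrial RNA-binding proteins, had a difference of 2.86 and TFB1M, an rRNA methyltransferase of mitochondria, 2.51. The smallest were those of SLIRP, an RNA-binding partner of LRPPRC, with 0.10, and PNPT1, an exoribonuclease, with 0.26. Taken in this order, the differences were -0.20, 1.63, 0.080 and -0.92 in gene-rich and 2.07, 2.00, 0.32 and 0.18 in poorer cells. The mean of the list had an r of 0.0507 with that of the 8 rows over all cells, -0.0253 in gene-rich and -0.0106 in poorer cells.

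Humanin is known to act through FPR2 and FPR3, through a receptor of CNTFR, IL27RA and IL6ST, and by binding BAX, BID, BCL2L11 and IGFBP3. The receptor genes were low in the cells. FPR2 was at 0 in all 121 cells, FPR3 was above TPM 1 in 3, IL27RA in 29, CNTFR in 36 and IL6ST in 39. Among the binding partners BAX was above TPM 1 in 95 cells, BID in 113, BCL2L11 in 56 and IGFBP3 in 14. Only the apoptosis genes BAX, with a mean of 53.0 TPM, and BID, with 75.5, reached a mean of 10, and neither passed a Long minus Short difference of 1 (0.89 and 0.30). Their differences were 0.38 and -0.19 in gene-rich and 0.89 and 0.57 in poorer cells. Of 6 RNAs listed as made without a poly(A) tail, 3 had a row, while RN7SK, RN7SL1 and RN7SL2 had none and could not be judged. RPPH1, the RNA of RNase P, was above TPM 1 in 40 cells, RMRP, the RNA of RNase MRP, in 29 and TERC, the telomerase RNA, in 10. Summed over these 3, a cell held from 0 to 6382 TPM, with a median of 1.37.

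Among 12 stress response genes, 7 averaged 10 TPM or more, and 6 of these were higher in Long cells by more than 1, with a median difference of 1.74, beside 66.5% and a median of 1.40 for all genes. ASNS, asparagine synthetase, had a difference of 3.61 and ATF4, a transcription factor of the integrated stress response, 1.95. Those of the transcription factor ATF3 and of MDM2, a ligase that acts on p53, were 1.11 and 0.57. Taken in this order, the differences were 0.050, -0.32, 1.01 and 0.25 in gene-rich and 3.20, 1.09, 0.21 and 0.052 in poorer cells. In the gene-rich cells the median of the list was -0.01.

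The cells carried the markers of their label. The 8 pluripotency markers summed to between 587 and 4249 TPM per cell, POU5F1 was above TPM 1 in 121 cells, LIN28A in 121, TDGF1 in 119 and NANOG in 116. Markers of other cell types, 12 in all, none with a mean of 10 TPM, summed to between 0 and 320 TPM with a median of 9. Of these, MIXL1 and KRT7 were above TPM 1 in 46 cells each, PAX6 in 33, COL1A1 in 21, SOX1 in 9, MESP1 in 6, GATA4 in 5, CDX2 and FOXA2 in 2 each, SOX17 and T in 1 each and COL3A1 in 0. The mean of the pluripotency markers had an r of 0.240 with that of the 8 rows, and the other cell markers 0.0910.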

How the data were processed

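The authors deposited 1 table of TPM values, with a column for each of 121 cells. Each cell is its own library, and no cell was removed and no doublet step applied here. By the study's methods, 50-bp single-end reads were mapped to hg19 with TopHat and counted per RefGene gene with HTSeq, without a stated use of strand, and the labels' processing notes name TopHat2 and RSEM. Which tool gave the TPM is not settled by these sources. Sums per cell ran from 979828 to 997050 TPM over 25610 complete rows, sorted up to ZFR. Later genes and 1 incomplete row were not analysed here, and the depth in reads is unknown. The cells had 2030 to 11515 detected genes (TPM above 1), with 8296 ± 2152 in Long, 7980 ± 2070 in Medium and 5784 ± 2355 in Short cells.

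The 8 rows and all gene lists were chosen with earlier results of these data known. Groups came from the labels. T/R ratios listed with the study were used for correlations and for 1 regrouping of cells. Differences were those of mean log2(TPM + 1), which understates changes of low genes, and a difference past 1 was counted, over genes whose TPM averaged 10 or more. Cells are not replicates, so no test was made. For likeness, the 5 other genes with the highest Spearman's rho to MIR4461, MIR6723 and MTRNR2L2 are named, together with the 5 microRNA rows of highest mean, all MTRNR2L rows and, per list, the 2 genes of highest and 2 of lowest difference. The genes of lowest rho, other list genes and the cells that stand apart were named after their values were seen. Sequences were read from GRCh37 by its annotation, whose nuclear coordinates are those of hg19, and matches are to the mitochondrial genome of GRCh37, of 16569 bases, which may differ from the one the authors used. Of the 8 rows, 4 had an annotation entry. The calculations were tested on simulated data. Python 3.11.15, numpy 2.4.6, pandas 2.3.3, scipy 1.17.1, matplotlib 3.10.9 and edlib were used. Alternatives were other pseudocounts (0.1 and 10), medians, Spearman's rho, TPM without a logarithm, other detection limits (0 and 10), 3 rescalings, 40 cells from the top of the T/R ratios against 40 from the bottom, and subsets of cells.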

Additional observations from a re-analysis of the deposited data

How the results depend on the processing

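The number of rows past a Long-Short difference of 1, 2 of 8, was 1 with a pseudocount of 10, without the 11 cells with the fewest detected genes, in cells with up to 8000 detected genes, with each cell rescaled without the 86 ribosomal protein rows, and without Short_8 and Short_12, without the cell with MIR4461 at 0 or without Short_6 and Short_13. It was 0 for medians, in gene-rich cells, for 40 cells from the top of the T/R ratios against 40 from the bottom and past a difference of 2, and 4, all higher in Short cells, after division by the median ratio over genes above 0 in every cell, which put 50.8% of the genes higher in Long and 4.80% higher in Short cells. MIR4461 turned to -0.040 for medians, -0.31 in gene-rich cells and -0.079 without Short_6 and Short_13, and, for 40 cells against 40, MTRNR2L6 turned to 0.056, MTRNR2L1 to 0.041, MTRNR2L8 to 0.14 and the median of the rows to 0.11. The median correlation among the rows, 0.625, was 0.732 on TPM without a logarithm, 0.825 in gene-rich, 0.728 in Long, 0.771 in Medium and 0.730 in Short cells. That with the number of detected genes, 0.0751, was -0.0507 after median ratio scaling and 0.209 in gene-rich cells, and that with the T/R ratio, 0.0585, was -0.0640 on TPM without a logarithm. Apart from the shifts given here for MIR4461, the causes were not tested. Median ratio scaling moved the median difference of all genes from 1.40 to 1.02 and that of the 8 rows from -0.12 to -0.89, so that 1 of 8 was higher in Long cells. It moved the share of genes higher in Long cells from 90.9% to 80.6%. Over 21080 genes above TPM 0 in any cell, 24.8% were higher in Long and 2.41% in Short cells. In all, 35 values of the whole set and 100 of single rows stayed within their limits, which were 0.1 for correlations, 1.5 times for counts and 1 SD across cells for differences. A further 20 of the whole set did not, and 4 of single rows turned sign. That SD was 1.49 for the median of the rows and 4.58 for MIR4461, so a turned sign of that median counted as within. For single rows a turned sign was counted only for MIR4461 and MTRNR2L6. Of the 35, 1 was the same count beside another background and could not move. The tally is thus no measure of stability. Cells left out in each alternative beyond the planned ones were chosen after seeing the data. No paired analysis was possible because the results come from no test and the numbers in the labels only name cells. TPM keeps no depth, so the counting error of single values stays unknown.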
